A study of Mus musculus with 3 samples.

Results

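The Kruppel-like factors of cultured macrophages are described here across 3 single-cell RNA-sequencing libraries. The 7 genes *Klf2*, *Klf3*, *Klf4*, *Klf6*, *Klf7*, *Klf10* and *Klf13* were taken by symbol from the 32285 genes of the count matrices, which hold 17 *Klf* genes in all, and each of the 7 symbols matched 1 row. The cells were bone marrow derived macrophages (BMDMs) of female C3H/HeN mice aged 6 to 8 weeks, grown in medium conditioned by L929 cells. The study's general culture protocol pools the marrow of its mice, while its single-cell methods describe cells of 3 mice treated independently. Control cells (Ctrl) received PBS, and the other cells received purified *Borrelia burgdorferi* lipoproteins (*Bb*LP, a Toll-like receptor 2 ligand of the Lyme disease spirochete) at 1 µg/mL for 1 h (LP1) or 4 h (LP4). Each condition is a single library, made from cells of 3 wells pooled before loading, so the matrices hold no replicate, no difference between conditions has a test, and the intervals given are 95% intervals that cover counting error only. The control was collected with the later time point, so LP1 differs from it in time in culture as well as in treatment, and these cannot be told apart for LP1.

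After removal of cells with no more than 500 unique molecular identifiers (UMIs, 1 per captured transcript), no more than 500 genes or at least 5% mitochondrial UMIs, 6071 cells remained in Ctrl, 5065 at 1 h and 4670 at 4 h. The libraries held between 35688939 and 61402275 UMIs. The median cell carried 5133 UMIs in Ctrl, 9343 at 1 h and 11784 at 4 h, so levels are given as CPM (UMIs of a gene per 1000000 UMIs of the library), and shares of cells are given after each cell was thinned to 2000 UMIs. Between 4 and 10 cell barcodes were shared by any pair of libraries. All 10 macrophage markers were detected at 10 CPM or more in every library, their summed level lay between 11899 and 12431 CPM, and the lymphocyte, mast cell and erythroid lists each stayed below 1 CPM in sum. In LP4, *Csf1r*, *Mertk* and *C1qa* were at least 1.5-fold lower than in Ctrl, and *Fcgr1* and *Cd14* at least 1.5-fold higher. Of all genes with a mean of at least 10 CPM, 22.2% were lower and 19.0% higher. The neutrophil list summed to 373, 277 and 522 CPM in Ctrl, LP1 and LP4, and the dendritic list to 236, 236 and 223.

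Kruppel-like factors are zinc finger transcription factors that bind GC-rich and CACCC-type elements. KLF2 and KLF4 are known in myeloid and endothelial cells as factors that restrain NF-κB dependent inflammatory genes, KLF4 also as a factor of monocyte differentiation, and both are induced through the MEK5-ERK5-MEF2 pathway. KLF3 is a repressor that recruits CtBP, KLF10 and KLF13 bind Sin3 corepressors, KLF10 is an early target of TGF-β, and KLF6 and KLF7 are activators of the same subgroup, of which KLF6 is known to support inflammatory gene expression in macrophages.

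The members differed widely in level, and 1 gene held most of the family's transcripts. The assay reads the 3′ end and counts 1 UMI per captured transcript, so CPM was not divided by length. Whether intronic reads were counted is not given in the sources used here. Introns make up 91.7% of the longest coding transcript of *Klf7*, 87.8% of that of *Klf13* and 82.3% of that of *Klf3*. The share is 52.6% for *Klf6*, 51.6% for *Klf10*, 43.1% for *Klf4* and 29.6% for *Klf2*. A part of gene length in the order between members was not tested. *Klf6* stood at 747 CPM in Ctrl, 845 at 1 h and 568 at 4 h, and it was the highest member in each library, at rank 183, 156 and 268 among the 7591 genes with a mean of at least 10 CPM. In Ctrl it was followed by *Klf13*, *Klf7*, *Klf10*, *Klf4*, *Klf2* and *Klf3*. The intervals of *Klf4* and *Klf2* overlapped there, as did those of *Klf7* and *Klf13* in LP1, and all other neighbours in the order were separated beyond counting error. In LP4 *Klf3* had moved from the last place to the fourth, and *Klf2* stood last, at rank 7553 of the 7591 genes. *Klf2* is among these genes only through its Ctrl and LP1 levels, so a low LP4 rank follows in part from the limit. Summed over the 7 members the level was 1323 CPM in Ctrl, 1360 at 1 h and 1010 at 4 h.

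**Figure D1:**
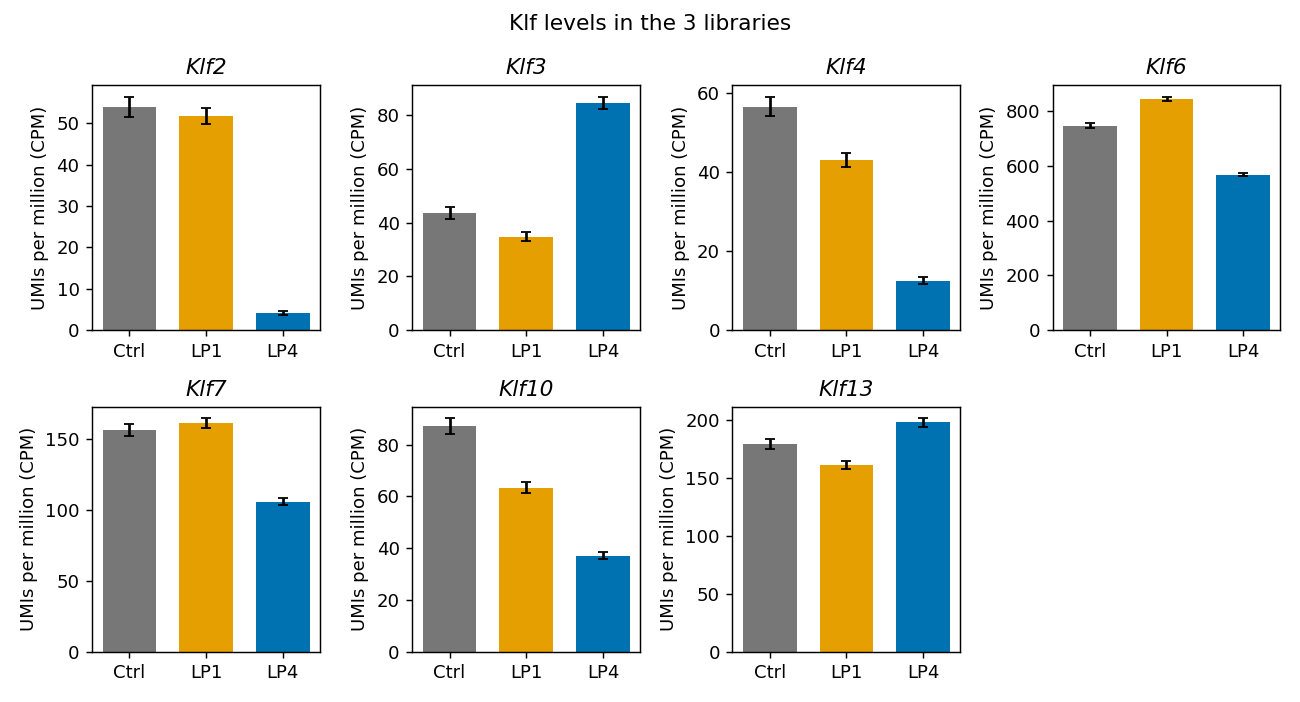
Level of each *Klf* gene, in CPM (vertical axes, from 0, with a scale per gene), in Ctrl, LP1 and LP4. Bars are the library value from 1 library per condition and error bars are 95% Poisson intervals; *Klf2* is at 54.0, 51.7 and 4.12 CPM and *Klf3* at 43.4, 34.7 and 84.6 CPM.

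After 1 h of *Bb*LP none of the 7 members differed from Ctrl by 1.5-fold, where 4.00% of the 7591 genes were at least 1.5-fold higher and 2.49% at least 1.5-fold lower. After 4 h, 1 member (*Klf3*) was at least 1.5-fold higher than in Ctrl and 3 (*Klf2*, *Klf4* and *Klf10*) were at least 1.5-fold lower, against 19.0% of all genes higher and 22.2% lower. Against LP1, LP4 had 1 of 7 members higher and 4 lower (*Klf7* in addition), with 15.4% of all genes higher and 17.6% lower. *Klf7* was short of 1.5-fold there with TMM library factors (log2 ratio -0.51) and with median-of-ratios factors (-0.47), while *Klf6* was past it with the macrophage-like clusters alone (-0.60) and with mitochondrial and ribosomal protein genes left out of the total (-0.59). The members' median log2 ratio against Ctrl was -0.15 after 1 h and -0.56 after 4 h, beside -0.02 and -0.07 for all genes. With library factors from TMM in place of total UMIs, the genes past 1.5-fold in LP4 over Ctrl were 25.5% higher and 15.4% lower, the median of all genes moved up by 0.17, and the same 4 members were past 1.5-fold.

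**Figure D2:**
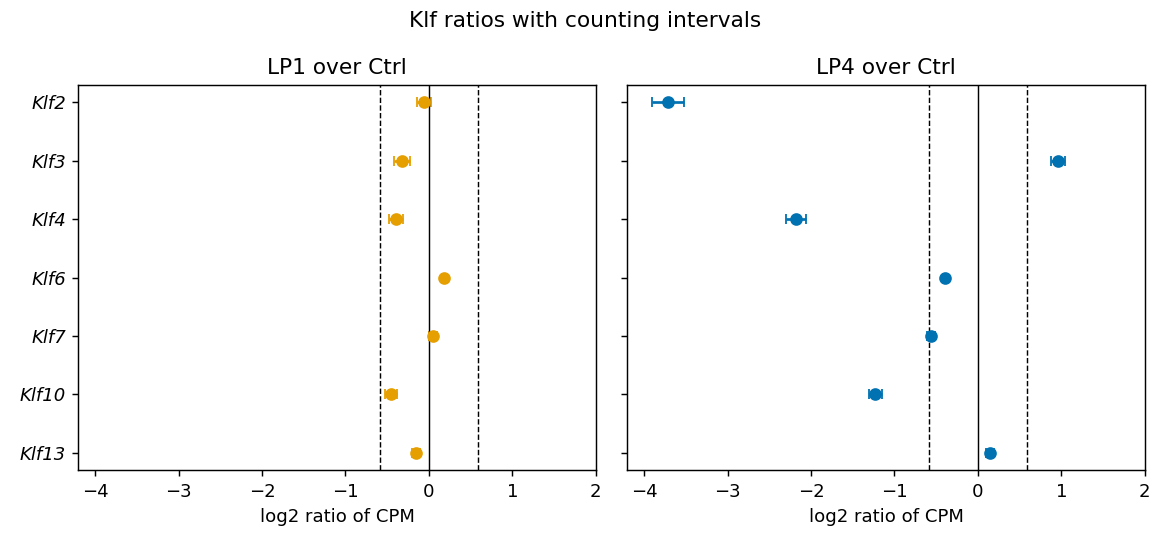
Log2 ratio of CPM (horizontal axis) of the 7 *Klf* genes for LP1 over Ctrl (left) and LP4 over Ctrl (right), both against the same control library. Points are ratios of 1 library to another, bars are 95% exact intervals of counting error, and dashed lines mark 1.5-fold; *Klf2* lies at -3.71 and *Klf3* at 0.96 in LP4, while all 7 points lie inside the dashed lines in LP1.

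*Klf2* and *Klf4*, the members known as restraints on inflammation, were lower in LP4 by the widest margin. *Klf2* gave 1927 UMIs in Ctrl, 2714 at 1 h and 253 at 4 h, that is 54.0, 51.7 and 4.12 CPM. Ctrl and LP1 were close (log2 ratio -0.06, interval -0.15 to 0.02), and the LP4 level was 13.1-fold below Ctrl (log2 ratio -3.71, interval -3.91 to -3.52). *Klf4* was at 56.6 CPM in Ctrl, 43.0 at 1 h and 12.5 at 4 h. Its level was already 1.31-fold lower at 1 h (log2 ratio -0.39, interval -0.48 to -0.31) and was 4.54-fold lower at 4 h (log2 ratio -2.18, interval -2.30 to -2.06). In Ctrl these genes stood side by side, and at 4 h *Klf4* retained the higher level.

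The share of cells with a transcript moved in the same way. Of cells thinned to 2000 UMIs, 10.4% held a *Klf2* UMI in Ctrl, 10.4% at 1 h and 0.908% at 4 h (interval 0.655% to 1.23%). For *Klf4* the shares were 10.2%, 8.43% and 2.16% (LP4 interval 1.76% to 2.62%). At full depth the shares were 23.9%, 33.4% and 4.07% for *Klf2* and 23.5%, 28.8% and 11.8% for *Klf4*, where the LP1 and LP4 cells are the more deeply sequenced ones. Free RNA from other cells gives a low share in every cell type, and the neutrophil gene *S100a9*, taken as a yardstick in macrophage-like cells, was found in 0.257% of thinned Ctrl cells (median 5199 UMIs before thinning) and 0.400% of LP4 cells (median 11866 UMIs). In the same LP4 macrophage-like cells *Klf2* was found in 0.822% (interval 0.580% to 1.13%) and *Klf4* in 2.07%. The *S100a9* interval was 0.237% to 0.632%, which overlaps that of *Klf2* and lies below the *Klf4* share. The neutrophil gene *S100a8* was found in 4.36% of thinned Ctrl macrophage-like cells and 5.02% of all thinned LP4 cells. A share from free RNA also depends on abundance. Thinned LP4 cells held 0.866 UMIs of *S100a9* on average and 0.0097 of *Klf2*. Whether the *Klf2* and *Klf4* shares lie at background was therefore not tested.

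*Klf2* is a short gene on chromosome 8 (GRCm38, GENCODE vM21, chr8:72319033-72321656, plus strand, 3 exons in its longest coding transcript), and *Klf4* lies on chromosome 4 (chr4:55527143-55532466, minus strand, 5 exons). No other gene of the matrices overlaps either. The stretches before their RefSeq starts are shown because both are GC-rich promoters of genes whose level was lower in LP4, as is that of *Klf3*, which was higher. Capitals mark matches on either strand to the GC box (GGGCGG) or to the MEF2 element, and only bases outside the annotated gene body are printed (RefSeq, GRCm38.p6).
Klf2, chr8:72318812-72319032, plus strand: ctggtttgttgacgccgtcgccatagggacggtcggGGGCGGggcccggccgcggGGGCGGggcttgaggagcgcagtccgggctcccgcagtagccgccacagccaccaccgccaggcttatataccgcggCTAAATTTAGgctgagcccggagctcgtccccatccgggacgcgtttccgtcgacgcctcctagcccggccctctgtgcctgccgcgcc
Klf4, chr4:55532476-55532725, minus strand: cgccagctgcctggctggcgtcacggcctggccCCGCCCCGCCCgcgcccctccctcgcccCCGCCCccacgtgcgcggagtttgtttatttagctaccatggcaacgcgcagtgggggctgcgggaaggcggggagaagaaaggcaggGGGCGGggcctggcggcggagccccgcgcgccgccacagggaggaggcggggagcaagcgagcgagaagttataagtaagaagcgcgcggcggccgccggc
Klf3, chr5:64803271-64803387, plus strand: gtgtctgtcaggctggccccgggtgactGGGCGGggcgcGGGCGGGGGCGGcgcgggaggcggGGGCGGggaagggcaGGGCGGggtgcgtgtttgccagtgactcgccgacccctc

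Over the 250 bases before the start, 6 of the 7 members had an entry (*Klf10* had none), and their GC content lay between 59.2% and 78.4%, beside a median of 52.4% over 32817 promoters. The GC box was found in all 6, between 1 and 6 times, and in 32.7% of all promoters. The MEF2 element was found once, 118 bases before the start of *Klf2*, and in 2.92% of all promoters. No match to the CArG box, the NF-κB element or the interferon-stimulated response element was found in any of the 6 windows, and these elements are in 1.47%, 3.90% and 2.97% of all promoters. The *Klf7* window lay wholly inside the annotated gene body (GENCODE vM21), and 117 of the 250 bases of the *Klf3* window lay outside it. A match or its absence describes the letters of the window only.

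The genes of the MEK5-ERK5-MEF2 pathway were measured beside *Klf2* and *Klf4*. Of 7 genes, 6 had a mean of at least 10 CPM, and 3 of these were at least 1.5-fold lower in LP4 than in Ctrl while none was higher, beside 22.2% lower and 19.0% higher of all 7591 genes. All 3 were MEF2 factors. *Mef2c* went from 211 CPM in Ctrl to 178 in LP1 and 49.0 in LP4 (log2 ratio of LP4 over Ctrl -2.11), *Mef2d* from 66.9 to 61.2 and 26.2 (-1.35), and *Mef2a* from 272 to 285 and 173 (-0.65). The upstream kinase genes *Map3k2*, *Map3k3* and *Map2k5* had log2 ratios between -0.31 and -0.16. The kinase gene *Mapk7*, which encodes ERK5, was below the 10 CPM limit, at 7.87, 8.67 and 5.91 CPM.

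*Klf3*, the CtBP-recruiting repressor, was the member with the opposite course. It had 1550 UMIs in Ctrl, 1823 at 1 h and 5196 at 4 h, that is 43.4, 34.7 and 84.6 CPM. The level was lower at 1 h (log2 ratio -0.32, interval -0.42 to -0.22) and 1.95-fold higher than Ctrl at 4 h (0.96, interval 0.88 to 1.05), so LP4 stood 2.44-fold above LP1. With cells of 5000 to 15000 UMIs alone, the log2 ratio to Ctrl was -0.11 at 1 h and 1.29 at 4 h. The thinned share of cells was 8.42% in Ctrl, 6.87% at 1 h and 15.7% at 4 h, and no interval of one overlapped that of another. *Klf3* spans chr5:64803388-64832901 on the plus strand, and a processed transcript on the other strand, *Gm20033*, lay below 1 CPM in all libraries. Of 13 genes for cofactors and ubiquitin ligases of these factors, 12 were tested, and 3 were at least 1.5-fold higher in LP4 than in Ctrl while 2 were lower, which is near the 19.0% and 22.2% of all genes and no result about this list. The higher ones were the acetyltransferase gene *Kat2b* (25.3 CPM in Ctrl and 71.9 at 4 h) and the deacetylase genes *Hdac2* (log2 ratio 1.08) and *Hdac3* (0.75). The lower ones were *Wwp1* (-1.03), a ubiquitin ligase, and *Sin3a* (-0.74), a corepressor. *Ctbp1* and *Ctbp2* had log2 ratios of 0.48 and 0.14.

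*Klf10*, the TGF-β early gene, was lower at each step. It was at 87.1 CPM in Ctrl, 63.4 at 1 h and 37.1 at 4 h, with log2 ratios to Ctrl of -0.46 after 1 h (interval -0.53 to -0.39) and -1.23 after 4 h (interval -1.31 to -1.15). Its thinned share of cells was 15.9%, 12.1% and 6.51%. It lies at chr15:38291463-38300706 on the minus strand. Of 8 TGF-β and Smad genes 7 were tested, and 4 were at least 1.5-fold lower in LP4 than in Ctrl with none higher, beside 22.2% and 19.0% of all genes. These were *Tgif1* (log2 ratio -1.11), a corepressor of Smads, the ligand gene *Tgfb1* (-0.94) and the receptor genes *Tgfbr1* (-0.82) and *Tgfbr2* (-0.60). *Tgif1* was higher in LP1 than in Ctrl (0.64) and *Tgfb1* was already lower there (-0.49).

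Over all kept cells, *Klf6* and *Klf7*, the activators, were both lower at 4 h, and *Klf6* was a little higher at 1 h. *Klf6* had a log2 ratio of 0.18 in LP1 over Ctrl (interval 0.16 to 0.20) and -0.40 in LP4 over Ctrl (interval -0.42 to -0.37). *Klf7* was at 156, 161 and 106 CPM, with a log2 ratio of 0.05 in LP1 (interval -0.0039 to 0.09) and -0.56 in LP4 (interval -0.61 to -0.51), which is 1.47-fold lower and just short of the 1.5-fold limit. Against LP1 it was 1.52-fold lower in LP4, just past the limit, and *Klf6* was 1.49-fold lower, just short of it. The direction of *Klf6* in LP4 over Ctrl differed with depth. In cells of 5000 to 10000 UMIs it was at 696 CPM in Ctrl (interval 683 to 708), 950 in LP1 and 727 in LP4 (interval 712 to 743). In cells of 10000 to 15000 UMIs it was at 691 CPM in Ctrl and 562 in LP4. Of thinned cells, 73.0%, 77.9% and 59.7% held a *Klf6* UMI and 24.3%, 25.0% and 18.0% a *Klf7* UMI in Ctrl, LP1 and LP4. *Klf6* (chr13:5861482-5870394, plus strand) has no overlapping gene in the matrices, and *Klf7* (chr1:64029447-64122282, minus strand) contains the antisense gene *Gm13748*, which was between 0.358 and 2.10 CPM.

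*Klf13*, a factor known from cytokine genes of lymphocytes, had no ratio to Ctrl of 1.5-fold at either time over all kept cells. It was at 179 CPM in Ctrl, 161 at 1 h and 198 at 4 h (log2 ratios to Ctrl -0.15 and 0.14). The 4 h ratio lay between 0.12 and 0.44 under the other choices of scaling and cells. In cells of 5000 to 10000 UMIs alone, *Klf13* was at 161 CPM in Ctrl (interval 155 to 167) and 244 in LP4 (interval 235 to 253). That difference was just past 1.5-fold. Its thinned share of cells was 30.1% in Ctrl and 32.7% at 4 h, with an interval of 25.8% to 28.2% at 1 h. It lies at chr7:63886351-63938915 on the minus strand, where 2 genes of the other strand, *Gm27252* and *E030018B13Rik*, stayed below 1 CPM.

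Of the 10 other *Klf* genes in the matrices, *Klf9*, a glucocorticoid-responsive factor, was the one with a mean of at least 10 CPM. It was at 33.4 CPM in Ctrl, 32.4 at 1 h and 16.0 at 4 h (log2 ratio of LP4 over Ctrl -1.06). *Klf8* lay below the limit on average and was at 6.16, 5.70 and 14.9 CPM. *Klf14*, *Klf15* and *Klf17* had no UMI in any library. Of the 9 related Sp factors 3 were tested, and *Sp3* was at least 1.5-fold higher in LP4 than in Ctrl (log2 ratio 0.63), where 19.0% of all genes were. Among 10 genes described as targets of these factors, 7 were tested, and 4 were at least 1.5-fold higher in LP4 than in Ctrl with none lower, namely *Ccl5* (log2 ratio 4.89), *Bcl6* (1.28), *Txnip* (1.02) and *Eng* (0.66). Of all genes 19.0% were higher and 22.2% lower. *Ccl5* encodes a chemokine that also belongs to the interferon and NF-κB responses, and the lists were chosen with earlier results of these data known.

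The LP4 differences of most members recurred in each of the 6 clusters compared, which leave out the neutrophil-like and stromal-like cells. Cells of the 3 libraries were clustered together on genes that differed by less than 1.5-fold between libraries and without any *Klf* or *Sp* gene, and 6 clusters had at least 50 cells in each library. Clusters A to E carried macrophage markers. A (4306 cells) was led by *Egr3*, *Apoe* and *Ms4a6b*, B (4097 cells) by *Mgll*, *Mmp9* and *Ctsk*, C (3440 cells) by *Ccnd1*, *Psd3* and *Fgf13*, D (2531 cells) by *Hal*, *Gas6* and *Ms4a4a*, and E (1007 cells) by histone and mitosis genes such as *Hist1h1b* and *Aspm*. Cluster F (221 cells) was dendritic-like and led by MHC class II genes. In LP4 over Ctrl, *Klf2*, *Klf4* and *Klf10* were at least 1.5-fold lower in 6 of 6 clusters and *Klf3* at least 1.5-fold higher in 6 of 6. *Klf7* was lower in 6 of 6, from -0.24 in B to -1.77 in F on the log2 scale. *Klf6* was lower in 5 of 6 and had a log2 ratio of 0.14 in F (interval -0.06 to 0.34). In LP1 over Ctrl, *Klf4* was lower with an interval clear of 0 in 3 of 6 clusters. These were A, D and F (log2 ratios -0.64, -0.55 and -0.68). The intervals of B, C and E included 0 (-0.11, -0.17 and 0.03).

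Members also differed between clusters within a library. In Ctrl *Klf2* ranged from 33.1 CPM in B to 92.7 in A, *Klf3* from 26.4 in B to 69.6 in A, and *Klf6* from 480.5 in B to 1046 in A. In LP4 *Klf2* ranged from 2.42 CPM in E (12 UMIs, interval 1.25 to 4.22) to 5.19 in D (70 UMIs, interval 4.04 to 6.55). These intervals overlap. The ratio of *Klf2* to Ctrl was the lowest in A (log2 -4.75) and the least low in B (-2.94), the clusters with its highest and lowest Ctrl levels. *Klf10* had another order between clusters, with its highest Ctrl level in B (101 CPM) and its lowest in F (40.4 CPM). In LP4 *Klf10* stood at 50.8 CPM in B and 19.6 in A. Ctrl cells of cluster A were shallower than those of B (median 3743 and 5671 UMIs), and in Ctrl every member except *Klf10* was higher per UMI in cells below 5000 UMIs than in cells of 5000 to 10000, with intervals that did not overlap. *Klf10* was at 91.8 and 84.1 CPM there with overlapping intervals, and above 15000 UMIs *Klf4* and *Klf7* were at 65.3 and 170 CPM, beside 66.3 and 169 below 5000. In Ctrl cells below 5000 UMIs *Klf2* was at 72.1 CPM and in those of 5000 to 10000 UMIs at 46.8 CPM, where LP4 cells of the same depth had 3.08 CPM. In that depth band *Klf3* was at 37.8 CPM in Ctrl (interval 35.0 to 40.8), 39.2 in LP1 (interval 36.5 to 42.1) and 97.2 in LP4.

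**Figure D3:**
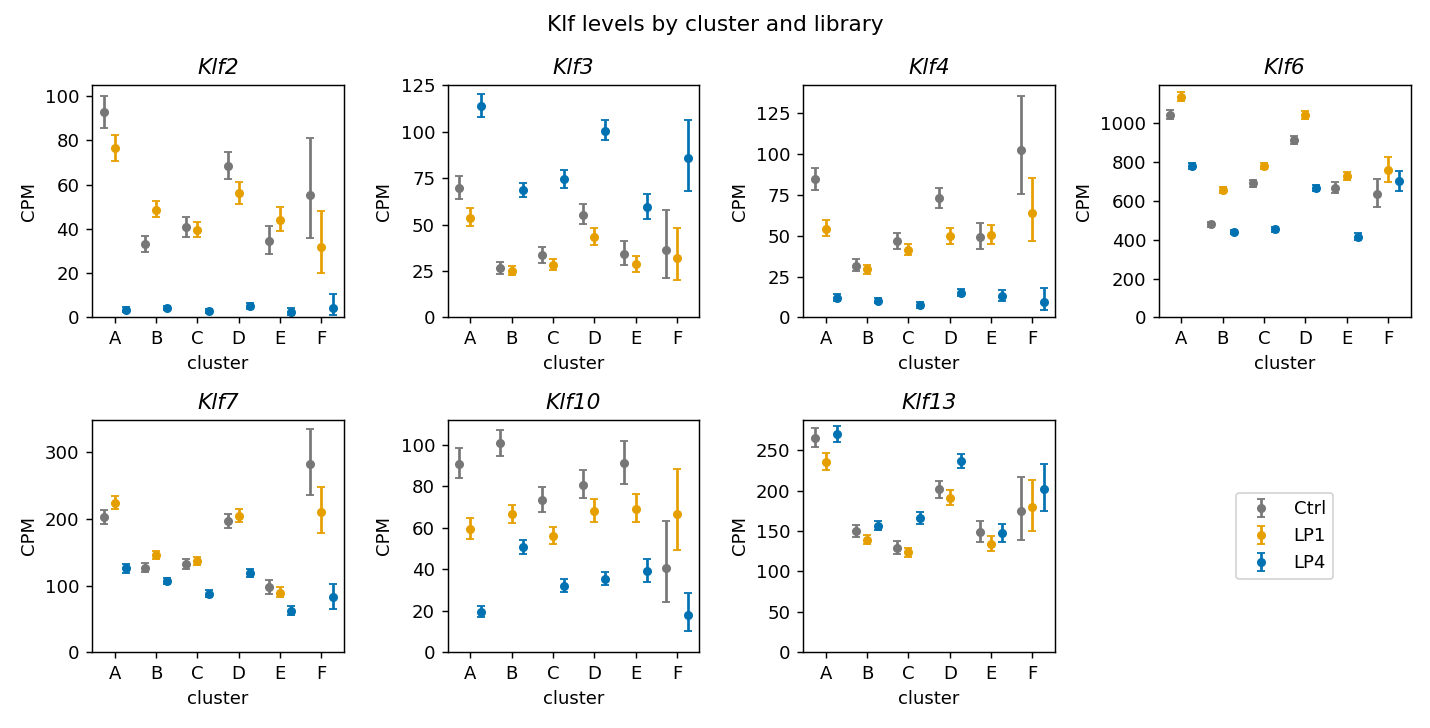
Level of each *Klf* gene in CPM (vertical axes, from 0) in clusters A to F (horizontal axes) of Ctrl, LP1 and LP4. Points are the summed cells of 1 cluster in 1 library and bars are 95% Poisson intervals; the LP4 points of *Klf2* lie between 2.42 and 5.19 CPM and those of *Klf3* above both other libraries in all 6 clusters.

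Over the 18 combinations of cluster and library, with log2(CPM + 1) centred within each library, *Klf3* and *Klf6* varied most alike (Pearson's r 0.95), followed by *Klf3* and *Klf13* (0.92), and *Klf10* had a negative r with each other member, from -0.37 to -0.10. These points share libraries and depth, and the values are descriptions. The genes outside the family with the most similar cluster pattern were *Kmt2e* for *Klf2* (0.92), *Ankrd11* for *Klf4* (0.91), *Erbin* for *Klf3* (0.95), *Cd83* for *Klf6* (0.95), *Renbp* for *Klf7* (0.96), *Gpx4* for *Klf10* (0.90) and *Slc9a3r1* for *Klf13* (0.96). In the pair of ratios to Ctrl, the genes nearest to *Klf2* were *Plau* (log2 ratios -0.12 and -3.54) and *Fgd4* (-0.20 and -3.35), and those nearest to *Klf4* were *Bcas3* (-0.27 and -2.08) and *Mef2c* (-0.24 and -2.11). Those nearest to *Klf3* were *Anpep* (-0.31 and 0.97) and *Atxn7l1* (-0.32 and 0.94), and those nearest to *Klf10* were *Ap3d1* (-0.47 and -1.21) and *Slc43a2* (-0.48 and -1.17).

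The small clusters of other cells carried *Klf* genes in other proportions. Neutrophil-like cells (32 in Ctrl, 24 at 1 h and 28 at 4 h, led by *Mpo* and *Elane*) had no *Klf4* UMI in any library, where 0 UMIs allow up to 28.7, 22.3 and 12.5 CPM (3 UMIs per library). They had 57.4 CPM of *Klf2* in Ctrl, 134 at 1 h and 58.4 at 4 h, from 6, 18 and 14 UMIs. These UMIs lay in 6, 7 and 8 cells. With the cell richest in *Klf2* left out of each library, the levels were 49.8, 93.7 and 38.6 CPM. For all 28 cells the LP4 interval, 31.9 to 98.0 CPM, lay above that of macrophage-like cells (3.43 to 4.45 CPM). The log2 ratio of LP4 over Ctrl in the neutrophil-like cells, 0.03, had an interval of -1.44 to 1.69. In this cluster 3 macrophage markers were widely detected, and whether all of its cells are neutrophils was not tested. The stromal-like cluster, led by *Mgp* and *Col1a2*, held 62 cells, and 4 macrophage markers were widely detected in it. At resolution 0.8 the cluster of that name held 13 cells, with 1 such marker, so most of the 62 cells lay in other clusters there. Whether all 62 cells are stromal was not tested. These stromal-like cells (22, 20 and 20 cells) had the reverse pattern, with 0, 3 and 1 UMIs of *Klf2* and 168, 98.2 and 219 CPM of *Klf4*. One LP4 cell held 25 of their 74 *Klf4* UMIs, and without it the level was 152 CPM, while the median of the 20 cells was 67.8 CPM. In LP4 the 20 stromal-like cells were 0.428% of the cells and held 9.67% of all *Klf4* UMIs with that cell included, and without them and the other small clusters the macrophage-like cells had 11.4 CPM of *Klf4*. *Klf6* was at 1282 CPM in the stromal-like cells of Ctrl, 1422 in LP1 and 2442 in LP4. The LP4 cell with the 25 *Klf4* UMIs also held 206 of their 827 *Klf6* UMIs, and with the cell richest in *Klf6* left out of each library the log2 ratio of LP4 over Ctrl was 0.73 (interval 0.47 to 0.99) in place of 0.93. The summed level of the 8 stromal markers was 5.35 CPM in Ctrl, 6.31 at 1 h and 22.1 at 4 h.

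**Figure D4:**
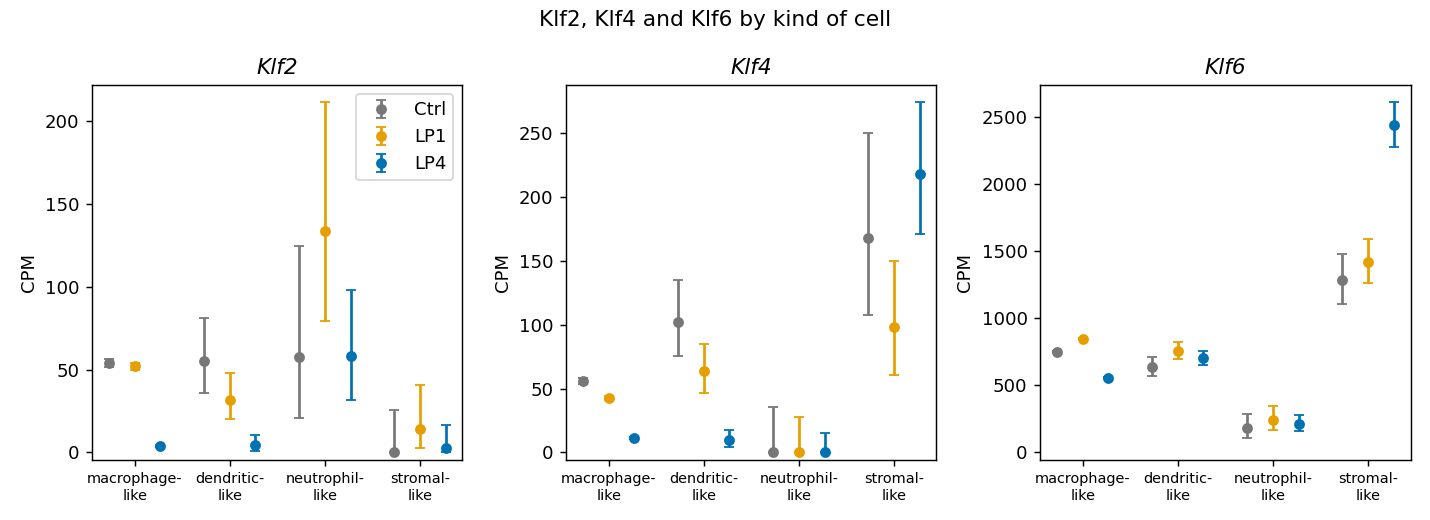
Level of *Klf2*, *Klf4* and *Klf6* in CPM (vertical axes) in macrophage-like, dendritic-like, neutrophil-like and stromal-like cells of Ctrl, LP1 and LP4. Points are summed cells of 1 library and bars are 95% Poisson intervals. In LP4 neutrophil-like cells had 58.4 CPM of *Klf2* (38.6 without the 1 cell richest in it) against 3.91 in macrophage-like cells. Stromal-like cells of LP4 had 219 CPM of *Klf4* (152 without the 1 cell richest in it) against 11.4. The stromal-like cluster shown held 62 cells, and the cluster of that name at resolution 0.8 held 13.

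Within a library the members differed to unequal extents between cells ranked by activation genes. Cells were ranked by their share of UMIs in 9 immediate early genes (*Fos*, *Jun*, *Egr1* and others), which are the first genes transcribed after a stimulus or after handling, and the highest tertile was set beside the lowest. From the lowest to the highest tertile of Ctrl, *Klf2* went from 33.5 to 78.5 CPM, *Klf4* from 35.1 to 77.6 and *Klf6* from 540 to 991, while *Klf10* was at 87.3 and 88.5 CPM. *Klf3*, *Klf7* and *Klf13* were also higher in the highest tertile of Ctrl (log2 ratios 0.80, 0.37 and 0.60). In LP4 *Klf2* was at 4.08 and 4.40 CPM and *Klf4* at 12.6 and 14.5, with intervals of the log2 ratio that included 0 for both, and *Klf6* was at 471 and 712. The cells of the highest tertile were also shallower in Ctrl (median 4352 against 5862 UMIs). Cluster A, led by the early gene *Egr3*, had the highest Ctrl level of *Klf2* (92.7 CPM) and of *Klf6* (1046 CPM) among the compared clusters. The parts of depth and of cluster in these values were not tested. Of the 9 immediate early genes, 7 were at least 1.5-fold lower in LP4 than in Ctrl and none was higher, beside 22.2% and 19.0% of all genes.

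Ranked by 6 inflammatory genes (*Tnf*, *Cxcl2*, *Ccl3*, *Ccl4*, *Il1b* and *Nfkbia*), LP4 cells of the highest tertile had more *Klf6* (773 against 428 CPM) and more *Klf7* (131 against 82.5) than those of the lowest. *Klf3*, *Klf4* and *Klf13* were also higher there (log2 ratios 0.36, 0.36 and 0.39), and the interval of *Klf2* included 0. *Klf10* went the other way, at 32.0 CPM in the highest tertile and 45.3 in the lowest, and its log2 ratio was below 0 in each of the 3 libraries, from -0.50 in LP4 to -0.18 in Ctrl. In Ctrl the widest ratio was that of *Klf2* (73.5 against 37.9 CPM, log2 ratio 0.96), and *Klf4* had 0.63. The highest tertile was the shallower one in each library (LP4 median 10785 against 12544 UMIs), and the parts of depth and of cluster were not tested. Ranked by 6 interferon-stimulated genes, the LP4 cells of the highest tertile had more *Klf3* (99.3 against 74.7 CPM) and *Klf6* (660 against 536). They had less *Klf4* (11.1 against 16.2), *Klf7* (87.8 against 114) and *Klf10* (29.7 against 43.0). This ranking was used for LP4 alone, since 3621 of the 6071 Ctrl cells and 2592 of the 5065 LP1 cells had no UMI of these genes.

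**Figure D5:**
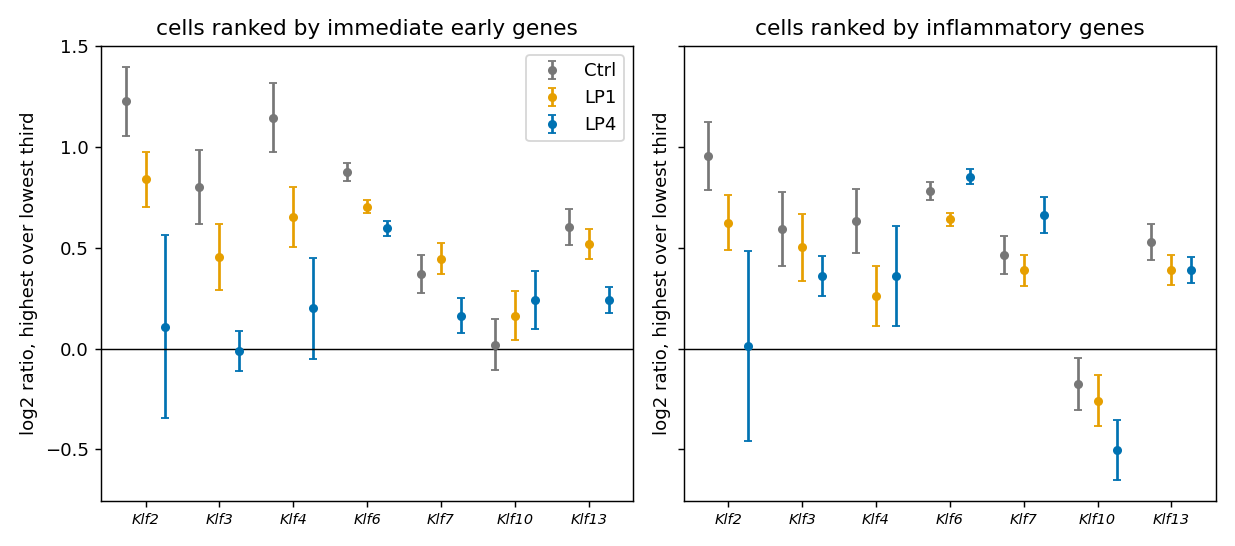
Log2 ratio of CPM (vertical axes) between the tertile of cells with the highest and the tertile with the lowest share of UMIs in 9 immediate early genes (left) or 6 inflammatory genes (right), for each *Klf* gene in Ctrl, LP1 and LP4. Points are 1 library each and bars are 95% exact intervals of counting error; on the left *Klf2* lies at 1.23 in Ctrl and 0.11 in LP4, and on the right *Klf10* lies below 0 in all 3 libraries.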

How the data were processed

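The deposited matrices hold raw UMI counts per gene and cell barcode, made by the authors with Cell Ranger on mm10. The matrix headers and the submitters' processing notes give version 7.1.0, and the study's methods give another. Whether intronic reads were counted is not given in the sources used here. The 10x 3′ assay was run on cells of 3 libraries, 1 per condition.

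The limits the study states were applied to the cells (UMIs above 500, genes above 500, mitochondrial share below 5%). The barcodes deposited differ slightly from the number the study states for Ctrl, and more cells passed these limits than the study kept. For each library the UMIs of a gene were added up and divided by the library total to give CPM. The 95% intervals (scipy 1.17.1) are exact: Poisson for CPM, conditional binomial for a log2 ratio, and binomial for a share. With 1 library per condition no test was run, and a gene was counted as different at 1.5-fold among the 7591 genes with a mean of at least 10 CPM. Total counts per library lay between 35688939 and 61402275 UMIs. Cells were clustered with scanpy 1.11.5 and leidenalg 0.10.2 (30 components, 20 neighbours, resolution 0.5), within-library centred, and named from fixed markers. Cluster names were rebuilt here, so they may differ from the study's. No doublets were removed in the main values, and removal of the 5% of cells with the highest Scrublet score was an alternative. The interval and thinning functions were tested on simulated data.

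The 7 members and the lists were chosen with earlier results of these data known. The text names the members, list genes past 1.5-fold, and the genes whose cluster pattern or pair of ratios was nearest to a member among genes with a mean of at least 50 CPM. *Ctbp1*, *Ctbp2* and the upstream kinases, which were short of 1.5-fold, and *Mapk7* and *Klf8*, with means below 10 CPM, were named after their values were seen. Alternatives were TMM (edgeR 4.0.16) and median-of-ratios scaling, other totals, cell and depth limits, a 2-fold limit, other thinning depths and other resolutions.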

Additional observations from a re-analysis of the deposited data

Results flagged for a closer look

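For 7 pairings of member and comparison, over all 3 comparisons, clusters lay on opposite sides of no difference, each with an interval clear of 0. None of these differences between clusters was tested, since each cluster of a library is 1 sample. For *Klf2* in LP1 over Ctrl, cluster B had a log2 ratio of 0.56 (48.7 against 33.1 CPM) and cluster D one of -0.29 (56.1 against 68.7 CPM), and E sided with B and A with D. For *Klf7* in LP1 over Ctrl, B had 0.20 and the dendritic-like cluster F -0.42, and in LP4 over Ctrl F had -1.77 while the stromal-like cluster had 1.38, the last from 37 and 6 UMIs. For *Klf6* in LP4 over Ctrl, the stromal-like cluster had 0.93 and cluster E, led by mitosis genes, -0.69, and in LP4 over LP1 these had 0.78 and -0.81. For *Klf4* in LP4 over LP1, the stromal-like cluster had 1.15 (0.95 without the cell richest in *Klf4* in each library, interval 0.11 to 1.86) and the dendritic-like cluster F -2.76. For *Klf13* in LP1 over Ctrl, the neutrophil-like cluster had 1.29 (44 and 14 UMIs) and cluster A -0.17. The stromal-like and neutrophil-like values rest on 20 to 32 cells a library. At resolution 0.8 the stromal-like cluster held 3, 3 and 7 cells in Ctrl, LP1 and LP4.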

How the results depend on the processing

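The count of members past 1.5-fold stayed within 1.5 times its value in all 3 comparisons under 10 other choices of scaling, cells, depth, doublets, cell types and shared barcodes. With 2-fold in place of 1.5-fold, 0 members were higher in LP4 than in Ctrl (*Klf3* lay at 1.95-fold) and 2 were lower in LP4 than in LP1. Which members were past 1.5-fold in LP4 over LP1 changed for *Klf7*, short of it in both scalings, and for *Klf6*, past it under 2 choices, and in LP4 over Ctrl *Klf7* was past it with mitochondrial and ribosomal protein genes left out of the total (-0.59). No member past 1.5-fold changed direction. Cells of 5000 to 10000 UMIs alone were not among these choices, and there *Klf6* was higher in LP4 (727 CPM) than in Ctrl (696). The log2 ratio of LP4 over Ctrl ranged from -3.79 to -3.51 for *Klf2*, -2.29 to -1.98 for *Klf4*, -1.33 to -1.02 for *Klf10*, 0.92 to 1.29 for *Klf3*, -0.43 to -0.16 for *Klf6* and 0.12 to 0.44 for *Klf13*, and *Klf13* differed less from Ctrl than *Klf6* with total UMIs but more with both scalings and with cells of 5000 to 15000 UMIs. The small difference of *Klf2* between LP1 and Ctrl changed sign with TMM, with median-of-ratios scaling and with cells of 5000 to 15000 UMIs alone (0.18), as did that of *Klf13* in those cells (0.0039). The log2 ratio of LP1 over Ctrl ranged from -0.38 to -0.11 for *Klf3* and from -0.44 to -0.25 for *Klf4*. Both were nearest to no difference in cells of 5000 to 15000 UMIs. Median-of-ratios scaling moved the median of all genes in LP4 over Ctrl up by 0.21, so that 26.7% of genes were higher and 14.1% lower. Every share of cells moved with the thinning depth, and cluster directions moved in 1 of 21 cases at resolution 0.3 and in none at 0.8. These directions cover clusters with at least 50 cells in each library, so not the stromal-like or neutrophil-like ones. The cell left out of the small clusters was an alternative chosen after seeing the data. No paired analysis was possible because each condition is a single library. Counts of 253 *Klf2* UMIs in LP4, and of 6 to 18 in the neutrophil-like cells, set the precision there.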

Other observations

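LP4 lost 273 barcodes to the mitochondrial limit, against 18 in Ctrl and 43 in LP1. In those LP4 barcodes *Klf2* was at 3.32 CPM and *Klf4* at 10.3, close to the values of the kept cells, while *Klf10* was at 50.4 CPM (interval 43.1 to 58.7) and *Klf13* at 152 (interval 139 to 165), against 37.1 and 198 in the kept cells. *Klf3* was at 62.5 CPM (interval 54.3 to 71.6), *Klf7* at 86.7 (interval 76.9 to 97.3) and *Klf6* at 519 (interval 495 to 544), against 84.6, 106 and 568. *Klf6* had the highest ratio of variance to mean of the members over single LP4 cells, a ratio that depends on level and so does not rank their spread. After thinning to 2000 UMIs its variance was 2.07 times its mean in LP4, 1.39 times in LP1 and 1.47 times in Ctrl, and 1 LP4 cell held 206 of its UMIs where none in Ctrl held more than 26. That cell was stromal-like and also held the highest *Klf4* count of LP4, 25 UMIs, beside a maximum of 9 in Ctrl.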
